A study of Homo sapiens with 8 samples.

Results

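The 10 genes described here are inflammatory and fibrosis-linked mediators: the interleukin-1 ligand IL1B with its receptor chains IL1R1 and IL1RAP, the cytokines TNF and IL6, the growth factors TGFB1, PDGFA and PDGFB, the collagen-crosslinking enzyme LOX, and S100A8. They were taken by symbol, by a rule that uses no measured value, though they were chosen with earlier results of these data known. All 10 were among the 25435 symbols of the table. Messenger RNA was sequenced from SET-2, a human cell line labelled as essential thrombocythemia at megakaryoblastic transformation. Its JAK2 mutation is shared by every group. Knockout cells carried ZRSR2 guide 1 or guide 2 and control cells carried non-targeting guide 1 or guide 2, each from a PLKO5 GFP virus. Every guide was used once in experiment 1 and once in experiment 2, which makes 8 libraries, 4 per genotype and 4 per experiment. RNA was taken on day 20 in one biological replicate and on day 25 in the other, counted from transduction. That experiment 1 is the day 20 replicate is an assumption. All libraries come from one line in serum-supplemented medium. Whether the transduced cells were sorted or cloned is not given in the sources used here. The p-values measure the spread between these cultures of one line. In fits without a term for the experiment, that spread includes the change between experiments. In fits with such a term, it holds no spread between collections.

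In JAK2-driven neoplasms, clonal megakaryocytes and monocytes release cytokines and growth factors that act on marrow stroma. IL-1 beta binds IL1R1, which needs the accessory chain IL1RAP to signal through MYD88 to NF-kB, and NF-kB in turn drives TNF, IL6 and chemokine genes. TGF-beta from megakaryocytes and platelets instructs stromal cells to lay down matrix, PDGF makes them divide, and LOX crosslinks the collagen fibres that are stained as reticulin. S100A8 forms calprotectin with S100A9 and is a danger signal of neutrophils and monocytes.

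The promoters of 4 genes are shown because their genes span the range of behaviour in these cells: IL1B is abundant, TNF and IL6 are near the limit of detection, and LOX changed most between experiments. Each sequence is the 250 bases before a gene's start from RefSeq on GRCh38.p14, read 5′ to 3′ on the gene's strand, and LOX is given for the most upstream of its listed starts. Capitals mark matches on either strand to GGG and TTTCC spaced by 2 bases (a form of the NF-kB site), TGANTCA (AP-1), TTCNNNGAA (STAT) or TATAAA.
IL1B (chr2:112836780-112837029, - strand): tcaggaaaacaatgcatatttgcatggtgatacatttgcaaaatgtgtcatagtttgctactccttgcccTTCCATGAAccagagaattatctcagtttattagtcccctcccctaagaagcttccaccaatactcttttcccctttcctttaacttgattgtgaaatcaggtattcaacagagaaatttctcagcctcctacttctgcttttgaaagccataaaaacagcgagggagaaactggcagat
TNF (chr6:31575315-31575564, + strand): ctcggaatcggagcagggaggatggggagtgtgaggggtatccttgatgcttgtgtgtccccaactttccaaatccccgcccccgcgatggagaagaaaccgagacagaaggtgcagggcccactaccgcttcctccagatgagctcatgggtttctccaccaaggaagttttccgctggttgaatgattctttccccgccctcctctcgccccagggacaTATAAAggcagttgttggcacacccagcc
IL6 (chr7:22726950-22727199, + strand): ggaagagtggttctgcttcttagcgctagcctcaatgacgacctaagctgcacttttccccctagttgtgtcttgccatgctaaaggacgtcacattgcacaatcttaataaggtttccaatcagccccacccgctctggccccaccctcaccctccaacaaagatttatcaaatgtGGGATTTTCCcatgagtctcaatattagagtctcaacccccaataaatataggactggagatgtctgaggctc
LOX (chr5:122078260-122078509, - strand): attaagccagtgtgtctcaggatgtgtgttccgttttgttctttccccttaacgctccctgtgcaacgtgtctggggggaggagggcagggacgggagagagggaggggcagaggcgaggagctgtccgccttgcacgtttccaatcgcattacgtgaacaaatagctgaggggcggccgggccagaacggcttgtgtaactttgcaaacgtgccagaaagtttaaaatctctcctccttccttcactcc
The IL1B window held 1 STAT-type match, the TNF window 1 TATAAA match, the IL6 window 1 match to the NF-kB form, and the LOX window none of these letters. Of the 35116 promoter windows of this length, 1.73% held the NF-kB form, 6.57% the AP-1 form, 6.57% the STAT form and 10.7% TATAAA. A match describes the sequence and does not show binding.

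The libraries held 31106042 to 71521173 expected counts each. A floor of 3 counts corresponds to 0.0428 to 0.0971 CPM (counts per 1000000 counts of a library). Such floors cover counting error only. ZRSR2 itself was at 24.8 ± 4.99 CPM in knockout and 39.5 ± 1.34 CPM in control libraries (SD, n = 4 each). Every knockout library (18.7 to 29.4 CPM) lay below every control (37.9 to 41.1 CPM), though the difference did not pass the threshold over all genes. Megakaryocyte markers were present, with ITGA2B, the platelet integrin chain, at 2085 to 2707 CPM, while GP1BB was listed at 0 in all libraries. Markers of other possible sources of these mediators were mixed. Several were near 0: CD14 reached 0.996 CPM, CSF1R 0.27, MPO 0.0713, CD3E 0.0451 and the fibroblast collagen COL1A1 0.393 CPM, and MARCO, MS4A1 and TEK had no count. Others of the same lists were present, with LYZ at 206 to 266, ITGAM at 148 to 230, CD4 at 211 to 340, KDR at 39.0 to 69.6, CSF3R at 11.7 to 58.0 and CD79A at 10.3 to 51.1 CPM. NKG7 reached 5.86, COL1A2 4.03, PDGFRB 3.63, COL3A1 3.14 and LUM 2.36 CPM. In bulk RNA, fewer cells expressing a gene and less RNA per cell cannot be told apart.

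The 10 mediators covered a wide range of levels. Per kilobase of merged GENCODE 29 exons, TGFB1 led at 455 ± 55.9 CPM per kb (SD, n = 8 libraries), followed by IL1B at 75.7 ± 11.4 CPM per kb. The receptor chains came next, IL1R1 at 3.63 ± 1.94 and IL1RAP at 2.00 ± 0.302 CPM per kb, and their ranges overlapped over the 8 libraries, though not within experiment 2 (4.51 to 5.96 against 1.63 to 2.42). LOX at 1.02 ± 1.41 and PDGFA at 0.851 ± 0.359 CPM per kb also overlapped, while in experiment 1 LOX (at most 0.134) lay below PDGFA (at least 0.492). IL6, PDGFB and TNF lay between 0 and 0.298 CPM per kb and overlapped each other over the 8 libraries. S100A8 was last, with 1 count in each of 2 knockout libraries and 0 counts in the other 6, under the floor throughout. Its partner S100A9 did not exceed 0.0561 CPM and S100A12 had no count.

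**Figure D1:**
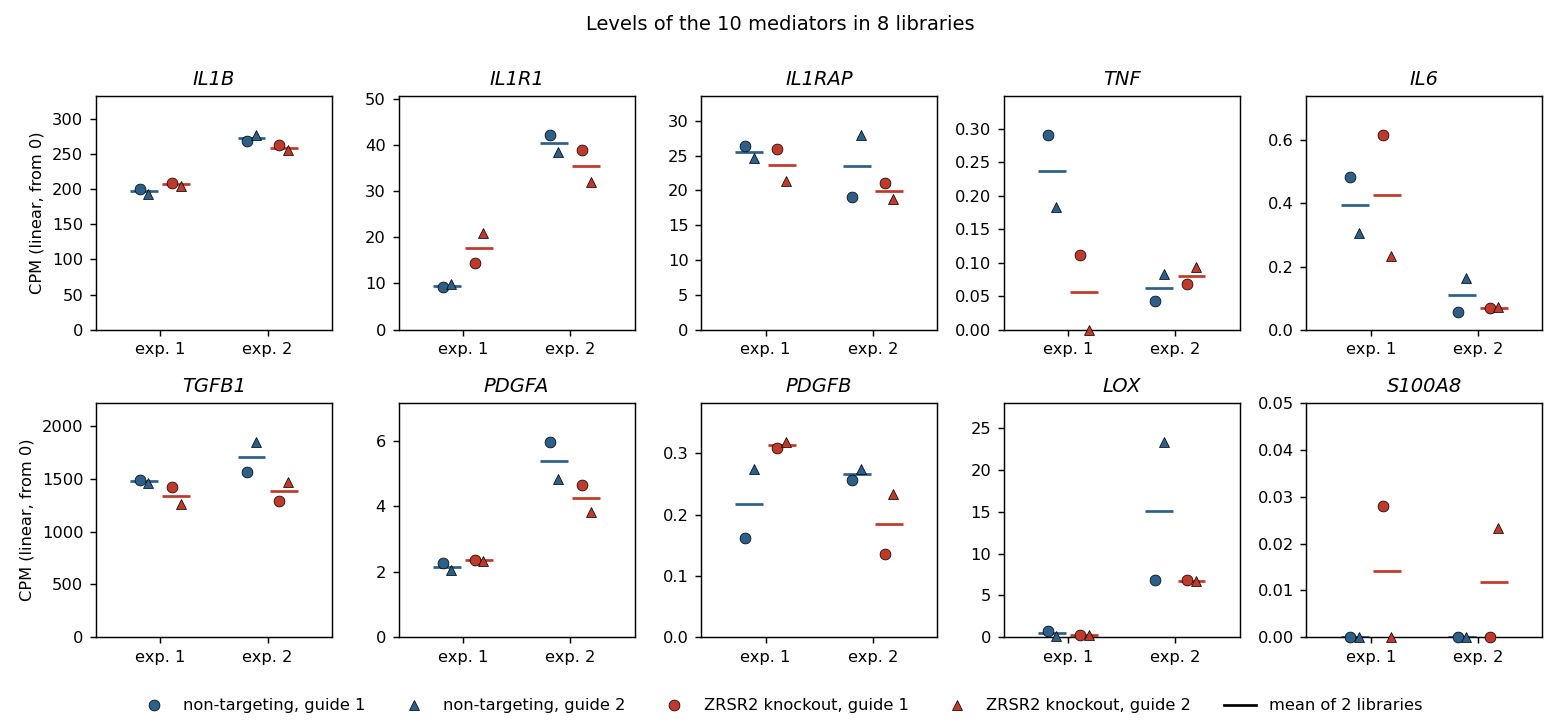
Level of each mediator in CPM (linear axes from 0, a scale per gene) by experiment, with non-targeting libraries in blue, ZRSR2 knockout libraries in red, circles for guide 1, triangles for guide 2 and lines at the mean of 2 libraries. IL1B, IL1R1, PDGFA and LOX are higher in all 4 libraries of experiment 2 than in all 4 of experiment 1, as 56% of tested genes separated in one direction or the other, the low counts of IL6 are lower there, and a single control library stands out for LOX at 23.3 CPM.

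Between experiments, IL1B, IL1R1, PDGFA and LOX rose, and none of the mediators past the count filter fell. The comparison asks how the same cells differed between collections. Of the 10 mediators, 7 passed the filter on low counts and 4 of these passed the threshold of an adjusted p of 0.05 in edgeR's quasi-likelihood test. Over all 14898 genes tested, 58.2% passed (62.9% at an unadjusted p under 0.05), so the share among the mediators is near the background and the values below describe single genes. The same 4 were called with the guide as a block, where 58.8% of genes passed, and in DESeq2, where 56.6% passed. Requiring 10 counts in every library left LOX and PDGFB untested, and 3 mediators and 58.6% of genes passed. Each experiment was a single collection, and day, culture and batch cannot be told apart. The SEs and p-values of this comparison rest on the spread of libraries within a collection and hold no spread between collections.

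IL1B, the secreted ligand, was at 209 and 205 CPM in knockout guides 1 and 2 and 201 and 193 CPM in control guides 1 and 2 of experiment 1. In experiment 2 it was at 263 and 256 CPM in knockout and 269 and 278 CPM in control libraries. The experiments did not overlap, as was so for 56% of all tested genes. The same share applies to each mediator below that passed the filter and whose experiments did not overlap. Within each experiment the genotypes lay close together. The means were 202 ± 6.92 and 266 ± 9.68 CPM (SD, n = 4). In edgeR the log2 fold change was 0.40, SE 0.06 and adjusted p 0.000271.

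IL1R1, the signalling receptor chain, moved further. It was at 14.5 and 21.0 CPM in knockout and 9.16 and 9.82 CPM in control libraries of experiment 1, and at 38.8 and 31.9 CPM in knockout and 42.2 and 38.5 CPM in control libraries of experiment 2. All 4 libraries of experiment 2 were above all 4 of experiment 1, and in experiment 1 both knockout libraries were above both controls. The share of all genes whose genotypes separate within an experiment was not computed. The log2 fold change between experiments was 1.54, with an SE of 0.13 (edgeR, adjusted p 4.55e-06). GENCODE 29 places an antisense RNA over IL1R1, and the strand setting of the counting is not given in the sources used here.

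IL1RAP, the accessory chain, was at 25.9 and 21.4 CPM in knockout and 26.3 and 24.6 CPM in control libraries of experiment 1. In experiment 2 it was at 21.1 and 18.8 CPM in knockout and 19.1 and 28.0 CPM in control libraries. The ranges overlapped because control guide 2 of experiment 2 was the highest of all 8. The log2 fold change was −0.18 with an SE of 0.13 (edgeR, adjusted p 0.243), and without that library it was −0.33.

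TNF, the cytokine upstream of NF-kB in many cells, had 4 and 0 counts in knockout and 9 and 6 counts in control libraries of experiment 1, and 3, 4, 3 and 3 counts in experiment 2. Knockout guide 2 of experiment 1 alone had no count, and the controls of experiment 1 were the highest. It did not pass the count filter. Without a filter its log2 fold change was −0.65 with an SE of 0.87 (edgeR, adjusted p 0.605).

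IL6, a target of NF-kB and a ligand of the JAK-STAT pathway, had 22 and 11 counts in knockout and 15 and 10 counts in control libraries of experiment 1. In experiment 2 it had 3 and 3 counts in knockout and 4 and 6 counts in control libraries. The level in experiment 1 was 0.233 to 0.618 CPM and in experiment 2 0.057 to 0.165 CPM, with no overlap. It failed the filter as well, and the share of such genes whose experiments do not overlap was not computed. In the fit without a filter, where 45.9% of 20284 genes passed the threshold and 22.3% passed as lower, its log2 fold change was −2.25 with an SE of 0.57 (edgeR, adjusted p 0.000298). The filter admitted IL6 in 5 of the 8 fits that left out 1 library, through its counts in experiment 1, so its values there (−2.63 to −1.87, where 25.7 to 30.6% of genes were called lower) add no support. The gene lies under an antisense RNA and opposite STEAP1B in the annotation.

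TGFB1, the latent cytokine most tied to marrow fibrosis, was at 1417 and 1259 CPM in knockout and 1492 and 1455 CPM in control libraries of experiment 1. In experiment 2 it was at 1289 and 1471 CPM in knockout and 1561 and 1845 CPM in control libraries. The experiments overlapped and the log2 fold change was 0.13 with an SE of 0.08 (edgeR, adjusted p 0.176). Without non-targeting guide 1 of experiment 2 it was 0.19. Protein-coding genes lie opposite TGFB1 in the annotation, CCDC97, TMEM91 and HNRNPUL1 among them.

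PDGFA, one of the chains of platelet-derived growth factor, was at 2.36 and 2.33 CPM in knockout and 2.26 and 2.04 CPM in control libraries of experiment 1. It was at 4.64 and 3.84 CPM in knockout and 5.96 and 4.83 CPM in control libraries of experiment 2. The 4 libraries of experiment 1 were tightly grouped, and all of experiment 2 lay above them. The log2 fold change was 1.09 with an SE of 0.15 (edgeR, adjusted p 0.000117). PDGFB, the other chain, overlaps an antisense RNA and had 5 to 18 counts per library, 0.162 to 0.318 CPM in experiment 1 and 0.135 to 0.275 CPM in experiment 2, or −0.25 on the log2 scale (SE 0.37, edgeR adjusted p 0.585).

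LOX, the crosslinking enzyme, was at 0.281 and 0.318 CPM in knockout and 0.744 and 0.183 CPM in control libraries of experiment 1, on 6 to 23 counts. In experiment 2 it was at 6.78 and 6.68 CPM in knockout and 6.85 and 23.3 CPM in control libraries, on 285 to 849 counts. In experiment 2 control guide 2 stood far above the other 3 libraries, which were nearly equal, and the experiments did not overlap. The log2 fold change was 4.74 with an SE of 0.45 (edgeR, adjusted p 1.18e-05), and it was 4.18 without control guide 2 of experiment 2 and 5.40 without control guide 1 of experiment 1. LOX overlaps SRFBP1 on the opposite strand in the annotation.

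The other genes of the same pathways were taken from 8 lists with 119 genes, of which 109 were tested. Between experiments 35 were higher and 36 lower past the threshold, with a median log2 fold change of 0.01 against 0.003 over all tested genes. Over all tested genes 29.6% rose and 28.6% fell, so these counts, and those of the IL-1, TNF, IL-6, TGF-beta, S100 and other factor lists below, lie near the background. The lists held genes moving both ways.

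Among IL-1 pathway genes, 7 of 21 tested rose and 8 fell, against 29.6% and 28.6% of all tested genes. IL1A, the second IL-1 ligand, rose from 0.332 ± 0.107 to 1.87 ± 0.436 CPM (SD, n = 4), 2.50 on the log2 scale (edgeR adjusted p 4.89e-05). NLRP3, the sensor of the inflammasome that activates caspase-1 to process IL-1 beta, fell from 10.2 ± 1.74 to 2.49 ± 0.748 CPM (−2.04, edgeR adjusted p 1.83e-05). IL1RL1, the IL-33 receptor, fell from 81.3 ± 17.4 to 37.9 ± 5.03 CPM (−1.10). The natural antagonist IL1RN was at 1.01 ± 0.312 and 0.755 ± 0.18 CPM and did not pass (edgeR adjusted p 0.241), and the decoy receptor IL1R2 failed the filter, with group means of 0.112 and 0.128 CPM.

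Among TNF receptor and NF-kB genes, 6 of 23 rose and 8 fell, again against 29.6% and 28.6%. The largest changes were in chemokines: CCL2, which attracts monocytes, fell from 8.96 ± 2.58 to 0.306 ± 0.0999 CPM (−4.91, edgeR adjusted p 2.8e-07), and CXCL8, which attracts neutrophils, from 12.5 ± 2.75 to 2.37 ± 1.17 CPM (−2.45). RIPK1, a kinase downstream of the TNF receptor, fell from 80.7 ± 6.28 to 36.3 ± 3.43 CPM. The TNF receptor TNFRSF1A was at 105 ± 3.5 and 113 ± 7.61 CPM (edgeR adjusted p 0.232). Of the IL-6 family and receptor list, 3 of 12 rose and 4 fell, among them the cytokine LIF, from 289 ± 109 to 102 ± 5.71 CPM (−1.48), the cytokine OSM, from 17.6 ± 4.06 to 33.5 ± 8.45 CPM (0.93), and the receptor chain IL6R, from 15.1 ± 1.23 to 8.19 ± 3.08 CPM (−0.90).

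Among TGF-beta genes, 6 of 21 rose and 8 fell (29.6% and 28.6% of all tested genes). THBS1, which can release active TGF-beta, fell from 224 ± 25.9 to 60.2 ± 9.8 CPM (−1.89, edgeR adjusted p 6.34e-07). TGFBI, a TGF-beta target, rose from 0.528 ± 0.225 to 1.51 ± 0.29 CPM (1.58). Of 4 tested PDGF genes, PDGFRB, a receptor, rose from 0.764 ± 0.16 to 3.14 ± 0.352 CPM (2.04, edgeR adjusted p 1.58e-05), the ligand PDGFD rose from 21.3 ± 0.606 to 37.2 ± 8.74 CPM (0.79), and 2 did not pass.

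Of 10 lysyl oxidase and collagen-modifying genes, 7 rose and 1 fell, where 29.6% of all tested genes rose. The list was chosen with earlier results of these data known, so its share describes these genes and is not a test against the background. The median log2 fold change was 1.21. LOXL2, a LOX relative, rose from 2.4 ± 0.926 to 32.6 ± 27.7 CPM (3.62, edgeR adjusted p 1.63e-05), LOXL4 from 1.22 ± 0.0426 to 4.59 ± 1.07 CPM (1.90), and the collagen prolyl hydroxylase P4HA1 from 55.6 ± 17.1 to 232 ± 124 CPM (2.05). Leaving out each library in turn gave 6 to 8 genes that rose.

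Of 8 tested S100 genes and receptors, 2 rose and 3 fell (29.6% and 28.6% of all tested genes). S100A10 rose from 28.2 ± 1.49 to 53.9 ± 14.4 CPM (0.92, edgeR adjusted p 0.000117) and the receptor AGER from 24.6 ± 2.74 to 43.3 ± 5 CPM (0.81). TLR4, a receptor for calprotectin, fell from 4.09 ± 0.493 to 0.709 ± 0.309 CPM (−2.58). Of 10 other tested platelet and stromal factors 2 rose and 4 fell, with FGF2 and VEGFA, growth factors for fibroblasts and endothelium, at log2 fold changes of 1.41 and 0.79, and SPP1, the matrix protein osteopontin, at −1.24.

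**Figure D2:**
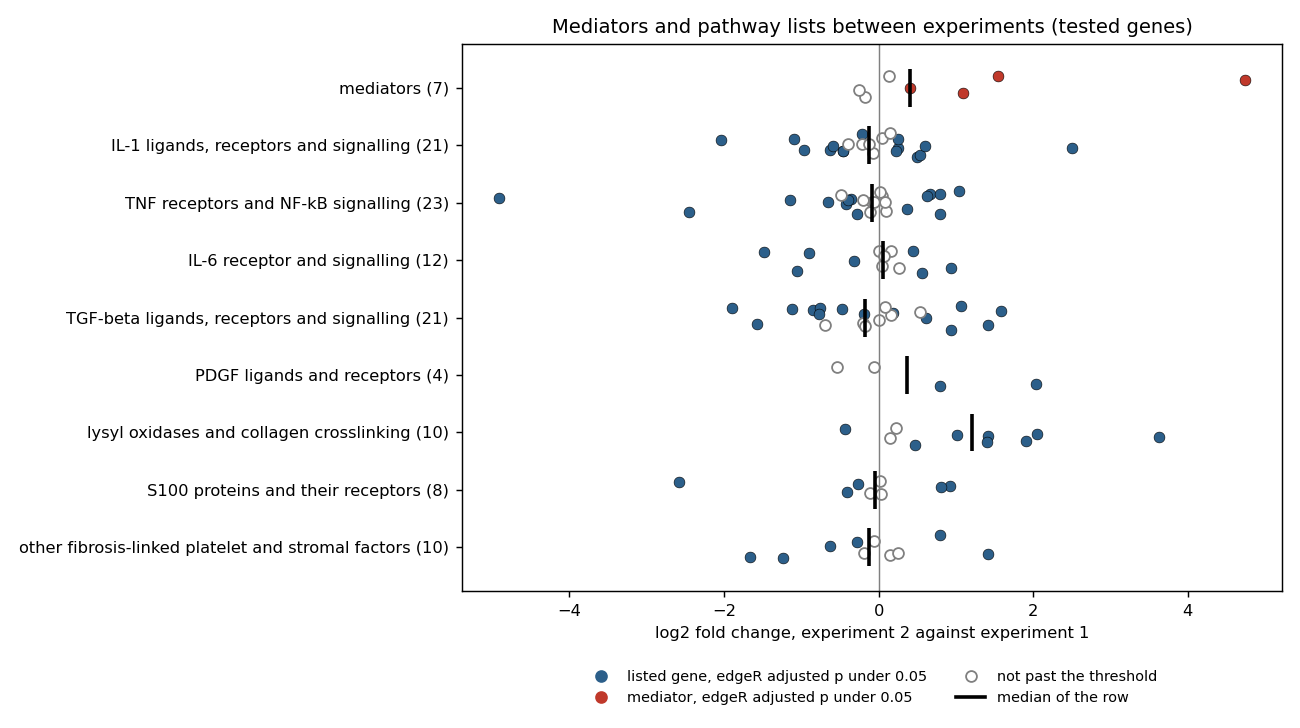
Log2 fold change of experiment 2 against experiment 1 for each tested mediator (red when past the threshold) and each tested listed gene (blue when past it), with open circles for genes that did not pass and black bars at the row median. Most rows spread to both sides of 0, and the lysyl oxidase row has its median at 1.21.

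Marker lists of other cell types were set beside this comparison. The summed granulocyte list was at 12.3 to 15.1 CPM in experiment 1 and 42.4 to 59.1 CPM in experiment 2, with 2 of 6 genes tested and most of the sum in CSF3R, while MPO and CEACAM8 stayed at or near 0. The monocyte list summed to 365 to 395 and 414 to 497 CPM, carried by LYZ and ITGAM, and the fibroblast list to 6.70 to 8.31 and 6.68 to 8.50 CPM with 6 of 6 genes tested. The T cell and NK cell list, mostly CD4, summed to 215 to 245 and 282 to 344 CPM, the B cell list, mostly CD79A, to 12.6 to 14.2 and 36.9 to 54.3 CPM, and the erythroid list to 1432 to 1586 and 1609 to 2332 CPM, with 2 of 6, 2 of 4 and 8 of 8 genes tested. The endothelial list, with 3 of 4 tested, summed to 67.0 to 83.7 and 51.5 to 111 CPM. The granulocyte, monocyte, T and NK cell, B cell and erythroid sums did not overlap between experiments, as was so for 56% of single tested genes. The fibroblast and endothelial sums overlapped, and so did the megakaryocyte sum, at 3301 to 3529 and 3385 to 4185 CPM. The part of these markers in the mediators' changes was not tested.

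Knockout was compared with non-targeting to ask whether the mediators change with loss of ZRSR2, a splicing factor that the series title places in a JAK2-driven neoplasm. No mediator passed the threshold. With genotype alone, 0% of tested genes passed in edgeR, and 0.597% had an unadjusted p under 0.05. Adding the experiment as a block, again 0% passed, and 4.63% had an unadjusted p under that level. DESeq2 called 0.0268% of genes, and 0.208% with the block, no mediator among them. In none of the 10 mediators did the 4 knockout libraries separate from the 4 controls, which 0.678% of tested genes did. No gene of the 8 pathway lists passed either, with 42 of 109 higher, 67 lower and a median log2 fold change of −0.04. All 10 lysyl oxidase list genes had a negative sign, with a median of −0.29, where 51.3% of all tested genes were lower and their median was −0.003. Control guide 2 of experiment 2 was the highest of the 8 libraries for 6 of these 10 genes, and its part in their sign was not tested. Against the mean of both non-targeting guides, which keeps that library, 8 of the 10 were lower with guide 1 and all 10 with guide 2.

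TGFB1 and LOX had the smallest p-values with the block. TGFB1 averaged 1359 ± 101 CPM in knockout and 1588 ± 177 CPM in control libraries (SD, n = 4), and the groups touched at 1471 and 1455 CPM. Its log2 fold change was −0.23 with an SE of 0.10 (edgeR, adjusted p 1), and with the block it was −0.22 (SE 0.08) with an unadjusted edgeR p of 0.0138 and an adjusted p of 0.916. Without the block, guides 1 and 2 gave −0.23 and −0.22 against non-targeting, each with an SE of 0.14. Guide 2 then differed from guide 1 by 0.01 (SE 0.17, edgeR adjusted p 1). With the block the guides gave −0.22 each (SE 0.10), and their difference was 0.00 (SE 0.12).

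LOX averaged 3.51 ± 3.71 CPM in knockout and 7.78 ± 10.8 CPM in control libraries, spreads that the experiments dominate. Its log2 fold change was −1.14 (SE 1.42) for genotype alone and −1.04 (SE 0.39) for the blocked fit, with edgeR adjusted p-values of 1 and 0.998. In the blocked fit the value rests on control guide 2 of experiment 2: leaving it out gave −0.16. For genotype alone leaving it out gave 0.43, but the controls then held fewer libraries of experiment 2 than of experiment 1.

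With the block the remaining tested mediators had larger p-values: IL1R1 at 0.32 (SE 0.20), IL1RAP at −0.17 (SE 0.12), PDGFA at −0.14 (SE 0.16), PDGFB at −0.02 (SE 0.37) and IL1B at 0.00 (SE 0.06). Adjusted p-values in edgeR were 1 for each of them. The standard errors were smallest for IL1B and TGFB1 and largest for PDGFB and LOX. TNF had 11 counts over the knockout and 21 over the control libraries, of which 4 and 15 were in experiment 1. IL6 had 39 and 35 counts.

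The sign of the IL1R1 value differed between experiments. In experiment 1 knockout libraries averaged 17.7 ± 4.61 CPM against 9.49 ± 0.467 CPM (SD, n = 2). The effect was 0.90 on the log2 scale (SE 0.18), with an unadjusted edgeR p of 0.000433 and an adjusted p of 1. In experiment 2 the averages were 35.4 ± 4.89 and 40.4 ± 2.63 CPM (edgeR: log2 fold change −0.19, SE 0.17, adjusted p 0.998). The difference of the effects was −1.10 (SE 0.25), with an unadjusted edgeR p of 0.00108 and an adjusted p of 1. An unadjusted p under 0.05 for this difference was found in 1.66% of tested genes, and an adjusted p under it in 0%.

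The call for IL1R1 depends on the fit. Without a count filter the effect in experiment 1 had an edgeR adjusted p of 2.4e-05, where 0.197% of genes passed, and the difference between experiments had 0.00291, where 0.0246% passed. DESeq2 gave an adjusted p of 0.00524 in experiment 1, where 0.0336% of genes passed, and 0.305 for the difference. Leaving out 1 library at a time, the effect in experiment 1 stayed between 0.61 and 1.15 and the difference between −1.34 and −0.81, with edgeR adjusted p-values no lower than 0.22 and 0.309.

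The other tested mediators had log2 fold changes in experiment 1 between −0.60 (LOX, SE 0.90) and 0.51 (PDGFB, SE 0.52), none past the threshold, where 0% of genes passed in edgeR and 2.05% had an unadjusted p under 0.05. In experiment 2 they ran from −1.15 (LOX, SE 0.46) to −0.08 (IL1B, SE 0.09), where 0% passed and 4.33% had an unadjusted p under 0.05. TGFB1 was at −0.30 there (SE 0.11, unadjusted edgeR p 0.0175, adjusted p 0.998). All 7 tested mediators had a negative sign in experiment 2, and 3 in experiment 1, where 49.4% of all tested genes were lower in each. Control guide 2 of experiment 2 was the highest library for 4 of the 7, and without it IL1RAP was at 0.09 and LOX at 0.00 in experiment 2. LOX in experiment 2 had an edgeR adjusted p of 0.998, which became 7.9e-05 without a count filter, where 0.572% of genes passed. Without control guide 1 of experiment 2, control guide 2 was the only control left there, and LOX was at −1.79.

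**Figure D3:**
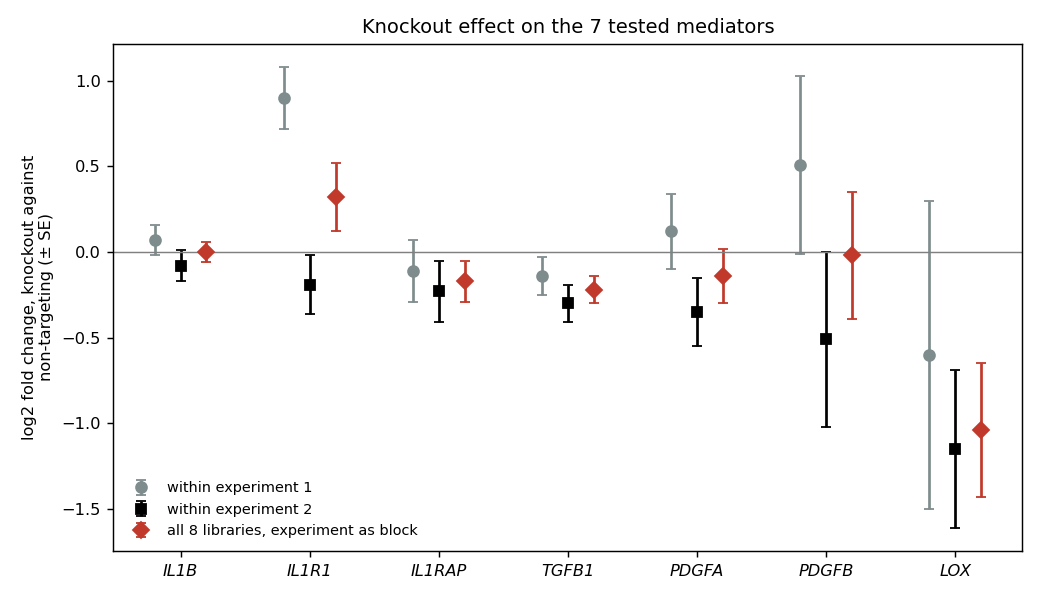
Log2 fold change of knockout against non-targeting for the 7 tested mediators, with bars for the SE: grey circles within experiment 1 and black squares within experiment 2 (2 libraries per genotype each), and red diamonds over all 8 libraries with the experiment as a block. IL1R1 is at 0.90 in experiment 1 and −0.19 in experiment 2, and no value passed the threshold in edgeR with the count filter.

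The guides were compared with each other and with non-targeting. In guide 1 and guide 2 libraries, IL1B averaged 236 ± 37.9 and 230 ± 35.7 CPM, IL1R1 26.6 ± 17.2 and 26.5 ± 7.75 CPM, and LOX 3.53 ± 4.6 and 3.50 ± 4.5 CPM (SD, n = 2, spread mainly between experiments). IL1RAP averaged 23.5 ± 3.37 and 20.1 ± 1.83 CPM. No mediator differed between guides past the threshold in edgeR, where 0% of genes passed and 0.181% had an unadjusted p under 0.05. That fit had no term for the experiment, so its spread includes the change between experiments. On simulated data its comparison of guide 2 with non-targeting recovered 4.48% of genes changed by 2-fold, so it does not show that the guides agree. With the block, guide 2 against guide 1 again called 0% of genes. Guide 1 and guide 2 against non-targeting also called 0% of genes, and with the block guide 2 called 0.0671%, no mediator among them.

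The control library that set LOX apart was also high in related genes, which were looked up after its LOX value was seen. LOXL2 was at 74.0 CPM in control guide 2 of experiment 2 and at 15.6, 19.5 and 21.2 CPM in the other libraries of that experiment. P4HA1 was at 418 CPM against 174, 166 and 171 CPM, P4HA2 at 21.0 against 9.24, 9.42 and 8.48 CPM, and the growth factor VEGFA at 270 against 136, 168 and 183 CPM. The library was the highest of the 8 for 6 of 10 lysyl oxidase list genes, 4 of the 7 tested mediators and 20.9% of all tested genes. What distinguishes this library was not tested.

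**Figure D4:**
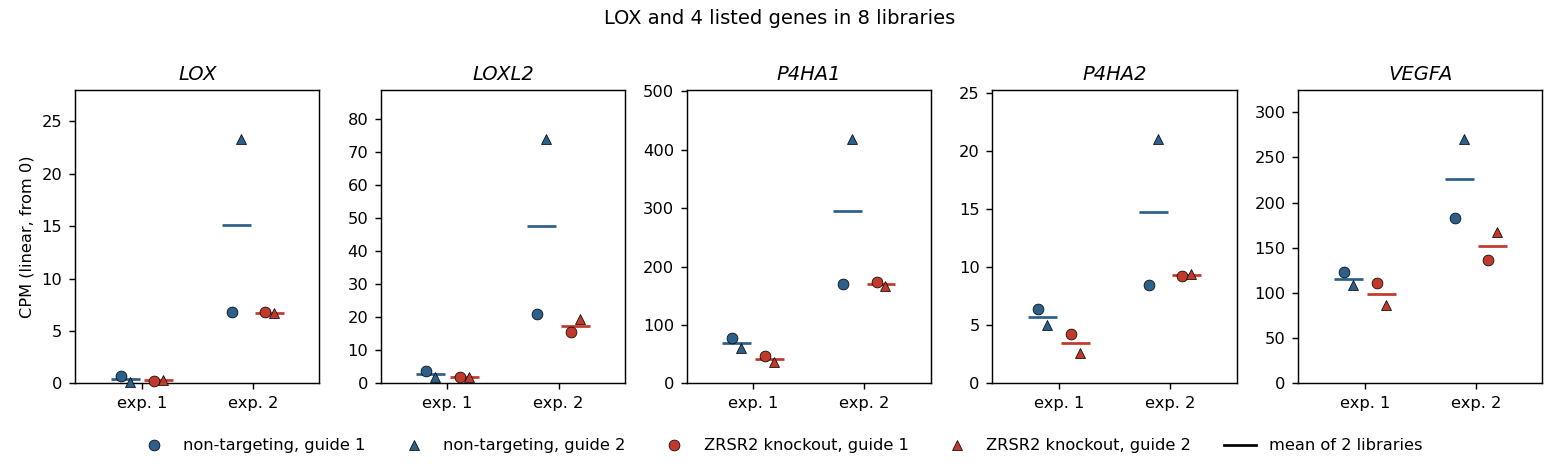
Level of LOX, LOXL2, P4HA1, P4HA2 and VEGFA in CPM (linear axes from 0) by experiment, with symbols and colours for guide and genotype and lines at the mean of 2 libraries. In experiment 2 the blue triangle, non-targeting guide 2, lies above the other 3 libraries in every panel, at 23.3 CPM for LOX and 418 CPM for P4HA1.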

How the data were processed

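Polyadenylated RNA was sequenced from 8 libraries. The values the authors deposited are RSEM expected counts per gene symbol, all whole numbers already. The submitters' processing notes name cutadapt 1.11, RSEM 1.2.30 and hg19, and aligner, annotation and strand setting are not given in the sources used here. Columns were matched to samples by the library number in the titles, and the members and gene lists were chosen with earlier results of these data known.

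Genes were filtered with filterByExpr on genotype (14898 kept) and scaled by TMM. edgeR's quasi-likelihood test was applied to all kept genes at once, p-values were adjusted by Benjamini-Hochberg with a threshold of 0.05, and SEs came from its F statistic. Genotype alone, 4 cells of genotype by experiment, or 4 guides were the terms. The experiment number is shared between genotypes in the labels, and deviations from genotype means correlated at 0.662 to 0.849 in the 8 same-experiment pairs, so it was used as a block beside the fit without it. Chi-square over its degrees of freedom was at least 3.05 for every pair of libraries, so no library was a mere recount of another, and all 8 were kept. That ratio does not show that the cultures were independent. CPM uses TMM-scaled totals. Merged exon lengths and overlapping genes came from GENCODE 29 (GRCh38), and promoters from RefSeq (all 10 symbols matched). All 10 mediators were described, and per list the up to 3 genes averaging 1 CPM or more with the largest changes past the threshold between experiments were named. IL1RN, IL1R2, TNFRSF1A, P4HA2, S100A9 and S100A12 were named beyond that rule, after their values were seen. Some items that the rule names are not reported here. Alternatives were no filter, at least 10 counts in every library, DESeq2's size factors, DESeq2, the block, and leaving out each library. On simulated data with the knockout against non-targeting design, 53.7% of genes changed by 2-fold were recovered with genotype alone and 95.5% with the block, where 13 of 198 calls were false. Software was R 4.3.3, edgeR 4.0.16, limma 3.58.1, DESeq2 1.42.0, Python 3.11.15 and matplotlib 3.10.9.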

Additional observations from a re-analysis of the deposited data

Results flagged for a closer look

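Single libraries far from the rest were looked for in 28 groups of 4 libraries (7 tested mediators by genotype and by experiment), and 2 stood apart. Chance would give about 1.4 if the groups were independent. They share libraries, and the genotype groups mix the experiments, so that number is rough. LOX in experiment 2 was at 23.3 CPM in non-targeting replicate 4 (guide 2), and the other 3 libraries were at 6.68 to 6.85 CPM. PDGFB among the controls was at 0.162 CPM in non-targeting replicate 1 (guide 1, experiment 1), and the others were at 0.257 to 0.275 CPM, on 5 counts against 9 to 18.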

How the results depend on the processing

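For 54 results, 725 values under alternatives were computed: 669 changed neither sign nor call (for counts, by no more than 1.5 times), 7 passed the threshold where the fit described in the report did not, 28 changed sign and 21 counts moved. The 4 mediators that rose between experiments kept their direction and call in every alternative that tested them, and leaving out a library gave 4 to 6 calls, the added ones being IL6, IL1RAP and TGFB1, while 7178 to 9193 of all genes were called, the most in the fit without non-targeting replicate 3, which also gave 6. For knockout against non-targeting the count of all genes was 4 with DESeq2, 31 with DESeq2 and the replicate block, and 0 to 12 with the block in edgeR when a library was left out (12 without non-targeting replicate 3), with 0 mediators in each. Within experiment 1 the counts were 40 without a filter, 5 with DESeq2 and 0 to 2 leaving out a library, with 1 mediator (IL1R1) without a filter and with DESeq2. Within experiment 2 they were 116, 13 and 0 to 154, with 1 mediator (LOX) without a filter and 0 to 1 leaving out a library (154 genes, LOX among them, without non-targeting replicate 3). The difference between experiments called 5 genes without a filter, 1 of them a mediator (IL1R1). ZRSR2 guide 2 against non-targeting called 10 genes with the replicate block, 2 with DESeq2 and 39 with both DESeq2 and the block, guide 1 called 4 and guide 2 against guide 1 called 2 with DESeq2 and the block. The replicate block changed no other call. Why the calls differ between fits was not tested.

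Changes of sign in log2 fold change were these. For knockout against non-targeting, PDGFB (0.03) was −0.02 with the replicate block and −0.01 with DESeq2 and the block. Leaving out a library, PDGFB passed the filter in 4 of the 8 fits. In those it ran from −0.11 to 0.10, and with the block from −0.23 to 0.08 (−0.08 without knockout replicate 1). IL1B ran from −0.10 to 0.09, and with the block from −0.03 to 0.03 (0.01 and 0.02 without knockout replicates 3 and 4), IL1R1 from −0.19 to 0.47, PDGFA from −0.41 to 0.11 and LOX from −1.68 to 0.43. Within experiment 1 LOX ran from −1.29 to 0.72 and IL1RAP from −0.24 to 0.03, and within experiment 2 IL1RAP ran from −0.49 to 0.09. For the difference of effects LOX ran from −1.88 to 0.59 and IL1RAP from −0.38 to 0.19. Depth limits TNF, IL6, PDGFB and S100A8, with at most 22 counts in a library.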

Other observations

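Genes with the most similar pattern over the 8 libraries were looked up for the 5 mediators with a mean of at least 5 CPM, by Pearson r of log2 CPM against 11008 other genes. For IL1B they were TRO (r = 0.995) and IL5RA, the IL-5 receptor chain (0.994), and for IL1R1 HERPUD1 (0.994) and DAPP1 (0.989). For LOX they were EPS8L2 (0.996) and RNF169 (0.993), for IL1RAP TAF1D (0.981) and GNAI1 (0.962), and for TGFB1 SLC25A37, a mitochondrial iron importer, and AMPD2 (0.959 each). For IL1B 866 genes, for LOX 611 and for IL1R1 233 had an r above 0.95, and for TGFB1 3 and IL1RAP 2. The 8 points share the split by experiment, so these values describe the libraries only.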
